A study of Homo sapiens with 24 samples.

Results

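Proteasome subunits are the gene products that assemble into the barrel-shaped 20S core particle and the caps that feed it. The subunits described here are all genes of the deposited tables named PSMA, PSMB, PSMC, PSMD or PSME followed by a number, except the inducible subunits PSMB8 and PSMB9, which the choice left out. This gave 41 of 29744 genes, 17 of the 20S core (PSMA and PSMB) and 24 of the regulatory particles (PSMC, PSMD and PSME). Their transcripts were measured by TAGseq, in which short tags near the 3′ ends of polyadenylated transcripts are sequenced, in HCC1806 and MDA-MB-231, established lines of triple-negative breast cancer. In each line the groups were fusion (genome doubled by cell fusion), slippage (doubled by leaving mitosis without division), cytokinesis failure (doubled by failed cell separation) and control (the parental aneuploid population). The doubled cells had been isolated by cell sorting and expanded, and all cells were grown for 48 hours in culture wells with no further treatment before RNA was taken. Each of the 8 groups had 3 biological replicates. Each route gave a single derived population in a line, and so the route and the population it gave cannot be told apart.

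In the 20S core, rings of alpha subunits gate the entry of substrates and rings of beta subunits hold the proteolytic sites, with PSMB5, PSMB6 and PSMB7 as the constitutive catalytic subunits. The 19S regulatory particle caps the core: PSMC subunits are ATPases that unfold substrates, and PSMD subunits include ubiquitin receptors, the deubiquitinase PSMD14 and chaperones that act only during assembly. PSME subunits form alternative activators, namely PA28αβ (PSME1 with PSME2), the nuclear PA28γ (PSME3) and PA200 (PSME4). In human cells the transcription factor NRF1 (gene NFE2L1) is known to raise the transcription of most subunit genes together when proteasome activity is limiting.

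The promoters of 4 members whose levels are described in detail are shown so that motifs named later can be read in place. Each runs from 250 bases before to 50 bases after the annotated start, 5′ to 3′ on the gene's strand (RefSeq, GRCh38.p14). Capitals mark matches, on either strand, to TGACNNNGC, the core of the antioxidant response element that NRF1 and its relative NRF2 are known to bind, or to the GAAA repeat (GAAA, any 2 bases, GAAA), the core of the interferon-stimulated response element. The second motif and these 4 promoters were chosen after the levels had been seen.
PSME1 promoter, chr14:24135944-24136243, plus strand: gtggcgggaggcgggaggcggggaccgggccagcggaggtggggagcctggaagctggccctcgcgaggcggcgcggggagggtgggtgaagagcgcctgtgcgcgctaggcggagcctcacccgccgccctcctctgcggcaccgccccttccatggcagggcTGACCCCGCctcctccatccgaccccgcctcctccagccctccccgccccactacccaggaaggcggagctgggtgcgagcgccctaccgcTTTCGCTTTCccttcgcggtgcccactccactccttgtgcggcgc
PSME2 promoter, chr14:24146561-24146860, minus strand: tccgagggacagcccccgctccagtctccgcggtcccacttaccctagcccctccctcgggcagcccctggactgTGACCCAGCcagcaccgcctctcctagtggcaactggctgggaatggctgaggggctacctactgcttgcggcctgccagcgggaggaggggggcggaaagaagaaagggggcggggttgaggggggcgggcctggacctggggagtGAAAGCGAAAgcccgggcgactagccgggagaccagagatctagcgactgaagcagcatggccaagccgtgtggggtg
PSMB10 promoter, chr16:67936801-67937100, minus strand: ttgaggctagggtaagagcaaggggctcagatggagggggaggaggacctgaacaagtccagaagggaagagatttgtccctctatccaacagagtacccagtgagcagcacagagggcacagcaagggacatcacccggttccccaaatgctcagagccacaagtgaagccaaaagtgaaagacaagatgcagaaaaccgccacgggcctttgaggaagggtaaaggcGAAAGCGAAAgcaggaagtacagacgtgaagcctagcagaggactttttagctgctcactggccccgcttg
PSME4 promoter, chr2:53970944-53971243, minus strand: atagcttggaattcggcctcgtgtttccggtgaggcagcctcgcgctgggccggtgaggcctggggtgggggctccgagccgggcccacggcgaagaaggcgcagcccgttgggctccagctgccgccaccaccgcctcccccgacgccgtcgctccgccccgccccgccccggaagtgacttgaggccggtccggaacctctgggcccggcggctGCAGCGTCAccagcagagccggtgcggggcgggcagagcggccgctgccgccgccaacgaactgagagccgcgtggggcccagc
The promoters of PSME1 and PSME2 hold both motifs, that of PSMB10 only the GAAA repeat and that of PSME4 only TGACNNNGC. Of the 41 members, 36 had an annotated window. TGACNNNGC stood in 12 of these 36 (33.3%), 2 of 13 core genes and 10 of 23 regulatory genes, against 16.1% of 27305 genes. The CCAAT box, bound by NF-Y, stood in 18 of 36 (50%), against 39.7% of all genes. The GAAA repeat stood in PSMA4, PSMB4, PSMB10, PSME1 and PSME2, 5 of 36 (13.9%), against 4.38% of all genes.

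Library totals were 3060622 to 4030297 estimated counts in HCC1806 and 2455707 to 3837957 in MDA-MB-231, and the variation between replicates (biological coefficient of variation) came to 3.88% for HCC1806 and to 5.28% for MDA-MB-231. The lines matched their labels: the basal keratin KRT5 averaged 426 ± 16.2 CPM (read counts scaled by TMM library size; SD, n = 3) in HCC1806 control and had at most 1 count in any MDA-MB-231 library, and vimentin (VIM) never passed 7 counts in an HCC1806 library and averaged 2608 ± 16.5 CPM in MDA-MB-231 control. In MDA-MB-231, slippage replicate 3 and cytokinesis failure replicate 1 differed more from their replicates than other libraries did. Several results that depend on them are also given without them. Of 13 immune and stromal marker genes, 4 to 7 were at 0 in every library of a group. Their summed level, mostly CD68, was 92.2 to 114 CPM in fusion, 111 to 114 CPM in slippage and 111 to 125 CPM in cytokinesis failure, against 70.8 to 76.6 CPM in control of MDA-MB-231. In HCC1806 it was 42.2 to 43.5 CPM in fusion, 33.2 to 38.2 CPM in slippage and 31.9 to 36.5 CPM in cytokinesis failure, against 43.07 to 43.7 CPM in control. It was higher than control in every doubled population of MDA-MB-231 and lower in slippage and cytokinesis failure of HCC1806, without overlap, and its part in the results below was not tested. In such bulk samples, fewer cells with a transcript and less of it per cell cannot be told apart.

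Doubled populations had summed subunit levels close to those of their controls, and the members that changed did so in both directions. The median fold change of the tested members lay between -0.0488 and 0.0528 on the log2 scale in all 6 comparisons with control, beside medians of all genes between -0.0031 and 0.0018. All 24 regulatory genes and 15 of 17 core genes passed the filter on low counts. PSMA8, a testis-specific alpha subunit, and PSMB11, the thymus-specific beta subunit, had 0 counts in all 24 libraries and were not tested. Summed over the core, the level was 6935 ± 52.2 CPM in fusion, 6672 ± 68.9 CPM in slippage and 6701 ± 55.1 CPM in cytokinesis failure, against 6687 ± 189 CPM in control (SD, n = 3 each) in HCC1806. In MDA-MB-231 it was 4952 ± 143 CPM in fusion, 4897 ± 136 CPM in slippage and 4775 ± 121 CPM in cytokinesis failure, against 4916 ± 35.9 CPM in control. The core sums of every doubled population overlapped those of its control. In MDA-MB-231 slippage and cytokinesis failure this overlap rested on the 2 libraries that stood apart. Without them slippage had 4856.5 and 4787 CPM and cytokinesis failure 4701.8 and 4708.6 CPM, all below the lowest control library (4885 CPM). Summed over the regulatory particles, HCC1806 had 7343 ± 121 CPM in fusion, 7497 ± 71.3 CPM in slippage and 7303 ± 30.7 CPM in cytokinesis failure, against 7449 ± 115 CPM in control. In MDA-MB-231 the regulatory sum was 5954 ± 49.0 CPM in fusion, 5518 ± 163 CPM in slippage and 5576 ± 58.8 CPM in cytokinesis failure, against 5775 ± 8.07 CPM in control. In MDA-MB-231 all 3 fusion libraries lay above, and all 3 slippage and cytokinesis failure libraries below, the 3 control libraries. In HCC1806 the 3 cytokinesis failure libraries also lay below control, while fusion and slippage overlapped it. These sums and medians are on the TMM scale, and the sums were not taken on TPM. For MDA-MB-231 fusion against control the member median was 0.0264 on the TMM scale. On log2(TPM + 1) it was -0.0955, beside -0.105 for all genes, so the direction in fusion depended on the scale.

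**Figure D1:**
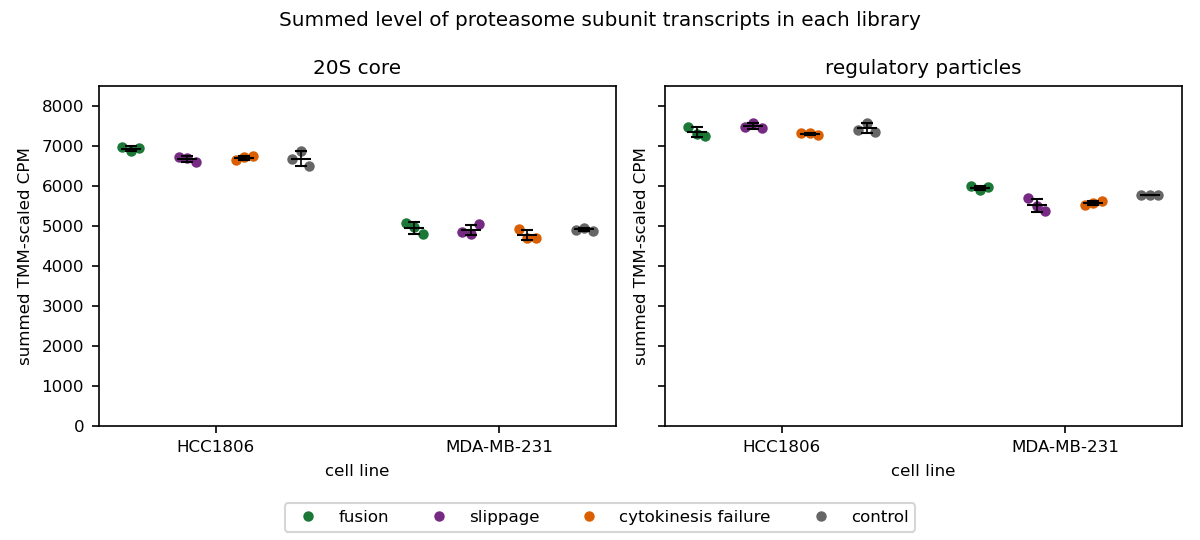
Summed level of the subunit transcripts in TMM-scaled CPM (y axis, from 0) in each library, for the 20S core and the regulatory particles, by cell line (x axis) and population (colour); points are libraries, lines show the mean ± SD of 3. HCC1806 libraries lie above MDA-MB-231 libraries in both panels, while populations of 1 line lie close together.

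The ratio of the core sum to the regulatory sum was 0.945 ± 0.0135 in fusion (0.932 to 0.959), against 0.898 ± 0.0123 in control (0.884 to 0.909) of HCC1806, and these libraries did not overlap. It was 0.890 ± 0.00869 in HCC1806 slippage and 0.918 ± 0.0105 in cytokinesis failure. In MDA-MB-231 the ratio was 0.832 ± 0.0235 in fusion, a ratio of 0.889 ± 0.0463 was found in slippage and one of 0.857 ± 0.0298 in cytokinesis failure, against 0.851 ± 0.00506 in control, and each doubled population overlapped control. Slippage replicate 3 had 0.9411 and cytokinesis failure replicate 1 had 0.8907. Without them slippage had 0.8538 and 0.8705, still overlapping control (0.847 to 0.8568). Cytokinesis failure then had 0.8434 and 0.8356, below control.

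A gene is called here where edgeR's quasi-likelihood test across all genes of a line gave a Benjamini-Hochberg adjusted p below 0.05. Fold changes are log2 values, followed by their standard error. Beside each count of members stands the background, the share of all tested genes called in that direction. Against control, HCC1806 fusion had 9 of 39 tested members called (23.1%), with 5 higher (background 5.33%) and 4 lower (5.55%; 10.9% for both directions). All 3 called core genes were higher there and 4 of the 6 called regulatory genes lower. HCC1806 slippage had 3 called, with 2 higher (background 1.53%) and 1 lower (1.81%; 3.33% for both directions), and HCC1806 cytokinesis failure had 7 called, with 2 higher (background 8.37%) and 5 lower (8.63%; 17.0% for both directions). MDA-MB-231 fusion had 7 called, with 4 higher (background 9.34%) and 3 lower (8.11%; 17.4% for both directions). MDA-MB-231 slippage had 2 called, with 1 higher (background 3.27%) and 1 lower (2.91%; 6.18% for both directions), and in MDA-MB-231 cytokinesis failure the 1 called member was lower (background 2.35% lower, 2.29% higher and 4.64% for both directions). Apart from HCC1806 fusion and slippage, the shares for both directions lay near or below those of all genes.

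Between routes in HCC1806, fusion against slippage had 8 called, with 4 higher (background 4.20%) and 4 lower (5.02%; 9.23% for both directions). Fusion against cytokinesis failure had 12 called, with 7 higher (background 8.96%) and 5 lower (8.96%; 17.9% for both directions). In slippage against cytokinesis failure both called members were lower (background 2.72% lower, 4.08% higher and 6.80% for both directions). In MDA-MB-231, fusion against slippage had 6 called, with 5 higher (background 9.09%) and 1 lower (8%; 17.1% for both directions). Fusion against cytokinesis failure had 9 called, with 7 higher (background 12.6%) and 2 lower (11.8%; 24.5% for both directions). In slippage against cytokinesis failure the 1 called member was higher (background 2.10% higher, 1.08% lower and 3.18% for both directions). The direction of the calls depended on the scale. On log2(TPM + 1) with limma the splits were 2 higher and 4 lower in HCC1806 fusion, 5 higher and 0 lower in HCC1806 cytokinesis failure, and 0 higher and 4 lower in MDA-MB-231 fusion, where this scale moved the median of all genes by -0.10. Between routes on that scale they were 0 and 3 (HCC1806 fusion against slippage), 0 and 6 (HCC1806 fusion against cytokinesis failure), 2 and 1 (MDA-MB-231 fusion against slippage) and 0 and 4 (MDA-MB-231 fusion against cytokinesis failure).

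**Figure D2:**
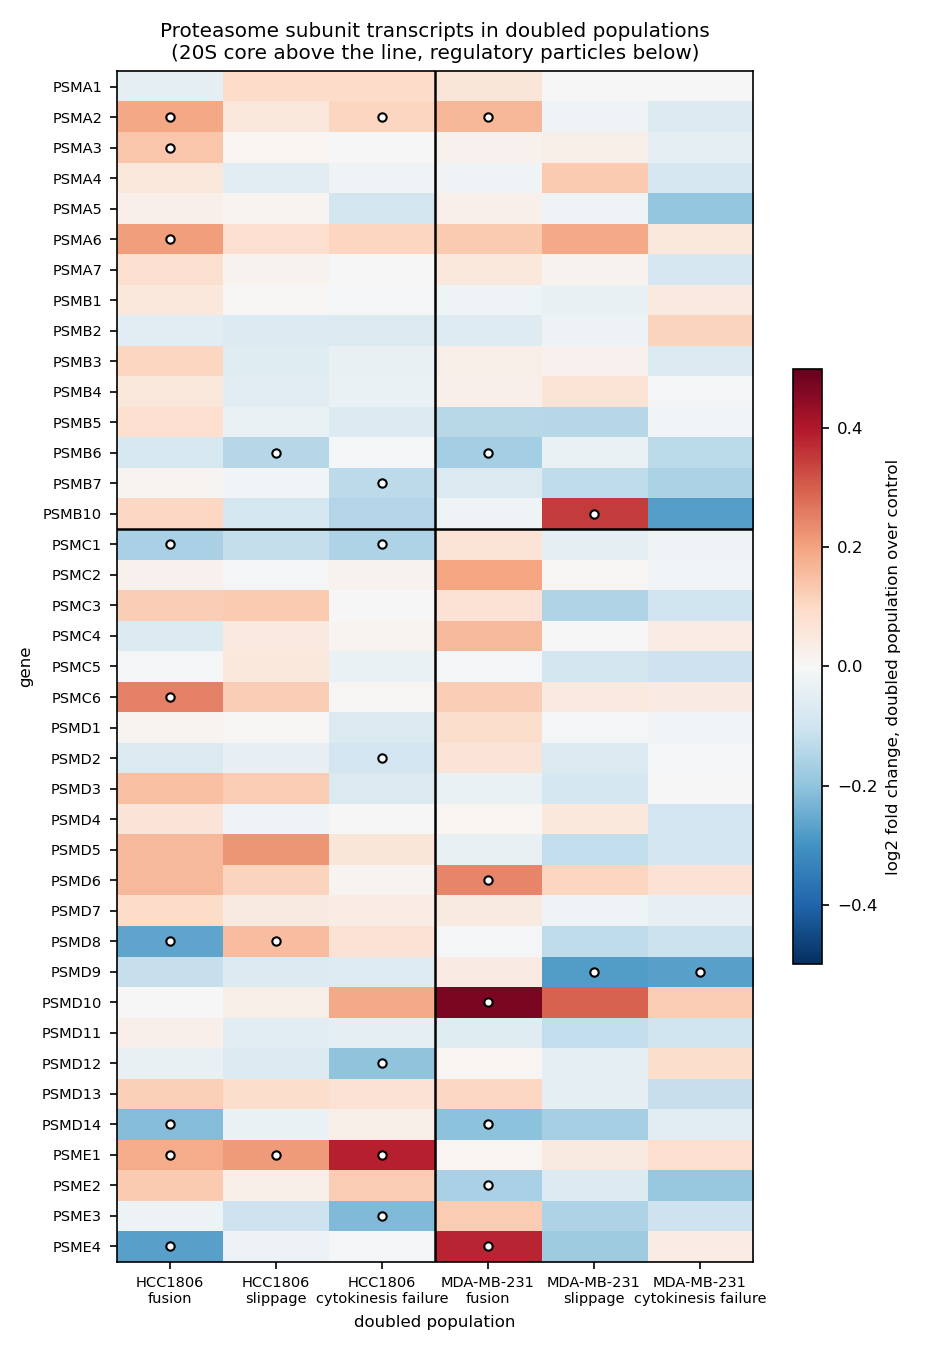
Log2 fold change (colour) of the 39 tested subunit genes (rows, 20S core above the regulatory particles) in the comparisons of each doubled population with its control (columns, by line); white dots mark called genes. Most cells are pale, and the darker ones are single genes such as PSME1 in HCC1806 and PSME4 in the fusion columns.

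In the alpha ring, PSMA2, PSMA3 and PSMA6 rose in HCC1806 fusion. PSMA2, an alpha subunit, had 573, 552 and 562 CPM in fusion, 501, 513 and 519.7 in slippage, and 522, 538 and 531 in cytokinesis failure, against 504, 493 and 479 CPM in control. Every fusion and cytokinesis failure library lay above the highest control library. The fold change was 0.20 ± 0.039 in fusion (adjusted p = 0.000137) and 0.11 ± 0.039 in cytokinesis failure (adjusted p = 0.0463). In MDA-MB-231, PSMA2 had 510.3, 503 and 501 CPM in fusion against 440.1, 451 and 458 CPM in control, again without overlap (0.16 ± 0.047, adjusted p = 0.0113). It also rose in MDA-MB-231 fusion against cytokinesis failure (425, 432 and 426 CPM; 0.23 ± 0.047, adjusted p = 0.000212) and against slippage (453, 427 and 454 CPM; 0.18 ± 0.047, adjusted p = 0.00517). PSMA2 was the one core gene called higher in fusion of both lines. In cytokinesis failure its call was lost without any 1 of the 6 libraries (adjusted p 0.0539 to 0.178), and in MDA-MB-231 fusion without control replicate 1 (0.0613). On the TPM scale PSMA2 was not called in either fusion population against control, nor in MDA-MB-231 fusion against slippage or cytokinesis failure. The HCC1806 cytokinesis failure call was also lost with DESeq2, without a filter, with a block for the replicate number and with only the libraries compared.

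PSMA6, another alpha subunit, had 305, 282 and 296 CPM in HCC1806 fusion against 246, 265 and 255 CPM in control, with no overlap (0.21 ± 0.049, adjusted p = 0.00132). This call held under every alternative and without any 1 library. PSMA3 had 435, 416 and 431 CPM in fusion, 389, 399 and 384 in slippage and 387, 369 and 413 in cytokinesis failure, against 388, 392 and 385 CPM in control. Its fusion libraries were the highest of the line (0.14 ± 0.043 over control, adjusted p = 0.0203), but leaving out control replicate 1 or 3, or fusion replicate 1 or 3, ended the call (adjusted p 0.0579 to 0.0935). PSMA3 was also not called there with DESeq2 or on the TPM scale. PSMA1, an alpha subunit, had 947, 917 and 933 CPM in fusion against 1014, 1061 and 1013 CPM in slippage and 1028, 1077 and 992 CPM in cytokinesis failure of HCC1806. The fusion libraries lay below both other doubled populations, by -0.14 ± 0.036 in each case (adjusted p = 0.00374 against slippage and 0.00216 against cytokinesis failure), and amid control (958, 1024 and 921 CPM). Without slippage replicate 2 the first of these calls was lost (adjusted p = 0.0529). Of the alpha genes, PSMA4, PSMA5 and PSMA7 were called in no comparison within a line.

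Of the constitutive catalytic subunits, PSMB5 was called in no doubled population against control, and PSMB6 and PSMB7 fell slightly in single populations. PSMB5, the chymotrypsin-like subunit and main target of clinical proteasome inhibitors, had 525, 527 and 534 CPM in fusion, 506, 488 and 466 in slippage and 477, 494 and 461 in cytokinesis failure, against 508, 487 and 501 CPM in control of HCC1806. Its fusion libraries lay above all other libraries of the line, by 0.15 ± 0.040 over cytokinesis failure (adjusted p = 0.0033) and 0.12 ± 0.040 over slippage (adjusted p = 0.0475), the second call being lost without any of 5 of the 6 libraries (all but slippage replicate 1; adjusted p 0.0868 to 0.256). Both calls were lost on the TPM scale, the second also with DESeq2 and without a filter. In MDA-MB-231, PSMB5 had 369, 349 and 348 CPM in fusion against 391, 395 and 385 CPM in control (-0.14 ± 0.052, adjusted p = 0.0615). The fusion effect differed between the lines by 0.22 ± 0.066 (HCC1806 minus MDA-MB-231, adjusted p = 0.0164), and this call held under every alternative.

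PSMB6, the caspase-like subunit, had 355, 347 and 340.1 CPM in HCC1806 slippage and 384, 383 and 383 in cytokinesis failure, against 385, 381 and 388 CPM in control. Every slippage library was below every control library (-0.14 ± 0.043, adjusted p = 0.0421) and below every cytokinesis failure library (-0.14 ± 0.043, adjusted p = 0.0369). Neither call held without any 1 of its 6 libraries (adjusted p 0.0536 to 0.158 and 0.0551 to 0.14). Both were also lost with DESeq2 and without a filter. The call against control was lost on the TPM scale and with only the libraries compared as well. In MDA-MB-231, PSMB6 had 248, 256 and 225 CPM in fusion against 296, 267 and 257 CPM in control. These did not overlap but came close (-0.17 ± 0.061, adjusted p = 0.0462), and leaving out control replicate 1 or 2, or fusion replicate 1 or 3, ended the call (adjusted p 0.0795 to 0.307). This call was also lost with DESeq2, RLE factors and a block for the replicate number. PSMB7, the trypsin-like subunit, had 329.9, 343 and 331 CPM in HCC1806 cytokinesis failure against 360, 375 and 362 CPM in control (-0.13 ± 0.045, adjusted p = 0.0326). The groups did not overlap, and leaving out control replicate 2 or 3, or cytokinesis failure replicate 1 or 3, ended the call (adjusted p 0.0576 to 0.117). PSMB7 was also not called there with DESeq2 or on the TPM scale.

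PSMB10 replaces PSMB7 in the immunoproteasome, the form of the core that interferon induces. In MDA-MB-231 it had 49.8, 46.2 and 55.5 CPM in slippage, 36.7, 37.3 and 43.0 in fusion and 25.1, 36.3 and 34.0 in cytokinesis failure, against 43.2, 37.9 and 37.5 CPM in control. The slippage libraries were the highest and the cytokinesis failure libraries the lowest of the line. Slippage exceeded cytokinesis failure by 0.63 ± 0.12 (adjusted p = 0.00065), a call that held without any 1 library but not on the TPM scale (adjusted p up to 0.0598). Against control, slippage was higher by 0.35 ± 0.11 (adjusted p = 0.0477). That call was lost without any control replicate or slippage replicate 1 or 3 (adjusted p 0.0557 to 0.212), and without both libraries that stood apart. DESeq2, the TPM scale and a block for the replicate number did not give it either. Fusion was called lower than slippage. This call was lost without fusion replicate 1 or 2 or slippage replicate 3 (adjusted p 0.0791 to 0.0925), with DESeq2 and without both libraries that stood apart. In HCC1806, PSMB10 had 57.3, 47.7 and 54.7 CPM in fusion, 46.7, 52.8 and 40.3 in slippage and 44.5, 48.0 and 42.2 in cytokinesis failure, against 50.5, 47.9 and 49.9 CPM in control, with all groups close to control. Within a line, PSMB3 and PSMB2 were called between routes and in no comparison with control. PSMB3 was higher in HCC1806 fusion than in slippage (0.16 ± 0.041, adjusted p = 0.00376) and cytokinesis failure (0.14 ± 0.041, adjusted p = 0.00728), both calls being lost without fusion replicate 2 (adjusted p 0.0546 and 0.0796) and on the TPM scale. PSMB2 was lower in MDA-MB-231 fusion, at 317, 309.8 and 299 CPM, than in cytokinesis failure, at 369, 339 and 336 CPM (-0.18 ± 0.052, adjusted p = 0.0102). This call was lost without fusion replicate 3 or cytokinesis failure replicate 1 (adjusted p 0.0522 to 0.0609).

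Among the 6 ATPases of the base, PSMC6 rose and PSMC1 fell in HCC1806 fusion. PSMC6 had 302, 279.6 and 297 CPM in fusion, 269.7, 266 and 267 in slippage and 234, 254 and 253 in cytokinesis failure, against 241, 261 and 239 CPM in control. Fusion libraries were above all others, with 0.25 ± 0.050 over control (adjusted p = 9.9e-05) and 0.25 ± 0.049 over cytokinesis failure (adjusted p = 6.19e-05). The call against control held under every alternative, and that against cytokinesis failure was lost only on the TPM scale. PSMC1 had 416, 409 and 402 CPM in fusion and 402, 409 and 429 in cytokinesis failure, against 424, 502 and 453 CPM in control. Fusion libraries lay below control, and cytokinesis failure libraries overlapped it. Control replicate 2 stood high. Without it the calls in fusion (-0.16 ± 0.045, adjusted p = 0.00846) and in cytokinesis failure (-0.15 ± 0.045, adjusted p = 0.0096) were lost, with adjusted p of 0.176 and 0.193, the second also without cytokinesis failure replicate 1 (0.0709). The cytokinesis failure call was also lost with DESeq2 and on the TPM scale. GENCODE 29 names 13 pseudogenes of PSMC1, so its reads may be shared and its level is uncertain. PSMC2, PSMC3, PSMC4 and PSMC5 were called in no comparison with control.

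In the lid, PSMD8 fell in HCC1806 fusion and rose in slippage. PSMD8, whose yeast counterpart completes the lid before it joins the base, had 345, 317 and 305 CPM in fusion, 419, 454 and 419 in slippage and 407, 416 and 400.3 in cytokinesis failure, against 402, 361 and 398 CPM in control. All fusion libraries were below, and all slippage libraries above, the 3 control libraries. The fold change was -0.26 ± 0.046 in fusion (adjusted p = 1.32e-05) and 0.15 ± 0.045 in slippage (adjusted p = 0.0354). Fusion was lower than slippage by -0.42 ± 0.046 (adjusted p = 2.1e-11) and than cytokinesis failure by -0.33 ± 0.046 (adjusted p = 1.19e-08). The 3 fusion calls held under every alternative. Leaving out control replicate 2 ended the slippage call, as did leaving out any slippage replicate (adjusted p 0.0519 to 0.314). The slippage call was also lost with DESeq2, on the TPM scale and with only the libraries compared (adjusted p up to 0.476). In MDA-MB-231, PSMD8 had 281, 312 and 327 CPM in fusion and 307, 286 and 253 in slippage, against 308, 294 and 323 CPM in control, and these groups overlapped. The effect differed between the lines by -0.26 ± 0.082 for fusion (adjusted p = 0.0294) and 0.28 ± 0.082 for slippage (adjusted p = 0.0377). On the TPM scale both calls were lost. The slippage call was also lost with DESeq2, with a block for the replicate number and without both libraries that stood apart. Of 12 libraries left out in turn, 8 ended the call for fusion (control 1 and 3 and fusion 2 and 3 of HCC1806, control 1 and 2 and fusion 2 and 3 of MDA-MB-231; adjusted p 0.059 to 0.106). For slippage 6 did so (control 2 and slippage 2 of HCC1806, control 1 and 3 and slippage 2 and 3 of MDA-MB-231; adjusted p 0.0532 to 0.15).

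PSMD14, the deubiquitinase that removes ubiquitin chains as substrates enter, fell in fusion of both lines. It had 305, 301 and 287 CPM in fusion, 346, 331 and 337 in slippage and 358, 353 and 351 in cytokinesis failure, against 334, 372 and 337 CPM in control of HCC1806. Fusion libraries were the lowest of the line (-0.22 ± 0.046, adjusted p = 0.000306), and also lay below slippage (-0.19 ± 0.046, adjusted p = 0.0032) and cytokinesis failure (-0.25 ± 0.046, adjusted p = 1.73e-05), with all 3 calls kept under every alternative. In MDA-MB-231 it had 232, 229 and 217 CPM in fusion, 235, 231 and 227 in slippage and 239.9, 251 and 254 in cytokinesis failure, against 256, 254 and 269 CPM in control. Fusion and slippage libraries were all below control, and fusion was called (-0.20 ± 0.055, adjusted p = 0.00731). Slippage was not (-0.17). Leaving out control replicate 3 or fusion replicate 3 ended the fusion call (adjusted p 0.0521 to 0.0645).

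Other regulatory subunits were called in single comparisons with control or between routes. PSMD6, a lid subunit, had 194, 190.3 and 203 CPM in MDA-MB-231 fusion, 177, 174 and 182 in slippage and 179.5, 169 and 173 in cytokinesis failure, against 176, 155 and 164 CPM in control. It was highest in fusion (0.24 ± 0.061, adjusted p = 0.00397), a call that held without any 1 library but not on the TPM scale (adjusted p up to 0.192). PSMD12, a lid subunit, had 203, 200 and 218 CPM in HCC1806 cytokinesis failure against 259, 219.5 and 233 CPM in control. The groups nearly touched (-0.20 ± 0.054, adjusted p = 0.00428), and leaving out control replicate 1 ended the call (adjusted p = 0.123), as did the TPM scale. PSMD2, the large scaffold of the base that binds ubiquitin-like shuttles, had 1441, 1413 and 1419 CPM in HCC1806 cytokinesis failure against 1514, 1576 and 1477 CPM in control. Its decrease was small (-0.098 ± 0.032, adjusted p = 0.0238) and was lost without control replicate 1 or 2 or cytokinesis failure replicate 2 or 3 (adjusted p 0.0501 to 0.0998). The PSMD2 call was also lost on the TPM scale and with only the libraries compared. PSMD13, a lid subunit, had 246, 270.1 and 276 CPM in MDA-MB-231 fusion against 236, 219 and 226 CPM in cytokinesis failure. It was called there (0.22 ± 0.064, adjusted p = 0.0104) but not without fusion replicate 2 or 3 or cytokinesis failure replicate 2 (adjusted p 0.0519 to 0.0557). PSMD13 was also not called there on the TPM scale.

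PSMD9 and PSMD10 bind ATPases during assembly of the base and are absent from the finished particle. PSMD9 fell in MDA-MB-231 slippage and cytokinesis failure but not in fusion. It had 159.7, 164 and 159.9 CPM in fusion, 127, 128 and 131 in slippage and 126, 133 and 128 in cytokinesis failure, against 161, 157 and 152 CPM in control. Slippage and cytokinesis failure libraries were all below every fusion and control library. The fold change over control was -0.28 ± 0.062 in slippage (adjusted p = 0.00339) and -0.27 ± 0.063 in cytokinesis failure (adjusted p = 0.00547). Fusion exceeded slippage by 0.32 ± 0.063 (adjusted p = 0.000203) and cytokinesis failure by 0.31 ± 0.063 (adjusted p = 0.000223). The 2 calls for slippage held under every alternative and without any 1 library, and those for cytokinesis failure were lost only on the TPM scale (adjusted p up to 0.0633 and 0.0549). In HCC1806, PSMD9 had 114, 93.2 and 125 CPM in fusion, 115, 123 and 105 in slippage and 109.6, 122 and 113 in cytokinesis failure, against 123, 116 and 121 CPM in control, with overlap throughout. PSMD10 (gankyrin) had 28.9, 29.1 and 22.6 CPM in MDA-MB-231 fusion against 22.9, 14.9 and 19.9 CPM in control. These libraries overlapped, and the call (0.47 ± 0.15, adjusted p = 0.023) did not hold when control replicate 2 or 3, or fusion replicate 1 or 2, was left out (adjusted p 0.0512 to 0.175). DESeq2 and the TPM scale did not give this call either.

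The mean of the 3 doubled populations was also set against control, with the same control libraries as in the single comparisons. In HCC1806, 4 members were higher (background 4.46%) and 1 lower (5.22%; 9.69% for both directions). Besides PSME1, described next, these were PSMA2 (0.12 ± 0.032, adjusted p = 0.00723), PSMA6 (0.13 ± 0.040, adjusted p = 0.0189), PSMC6 (0.13 ± 0.041, adjusted p = 0.0342) and, lower, PSMC1 (-0.14 ± 0.036, adjusted p = 0.00386). The PSMA2 call ended without control replicate 3 (adjusted p = 0.0895), the PSMA6 call without control replicate 1 or 3 (0.0645 to 0.187) and the PSMC1 call without control replicate 2 (0.218). PSMC6 was lost without 7 of 12 libraries (control 1 and 3, fusion 1 and 3, slippage 1, cytokinesis failure 2 and 3; adjusted p 0.0535 to 0.209). DESeq2 did not call PSMA6 (adjusted p = 0.0918) or PSMC6 (0.152), and limma on log2(TPM + 1) did not call PSMA2 (0.123) or PSMC6 (0.149). In MDA-MB-231, PSMD9 (-0.17 ± 0.050, adjusted p = 0.0348) and PSMD14 (-0.14 ± 0.045, adjusted p = 0.0442) were lower and no other member was called (background 2.99% lower, 3.06% higher and 6.06% for both directions). Both were lost without any 1 control replicate or slippage replicate 2, and PSMD14 also without fusion replicate 2 or 3 or slippage replicate 3 (adjusted p 0.0526 to 0.211 for PSMD9 and 0.0545 to 0.288 for PSMD14). DESeq2 called neither (adjusted p = 0.103 for PSMD9 and 0.0976 for PSMD14), nor did limma on log2(TPM + 1) (0.057 for both).

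**Figure D3:**
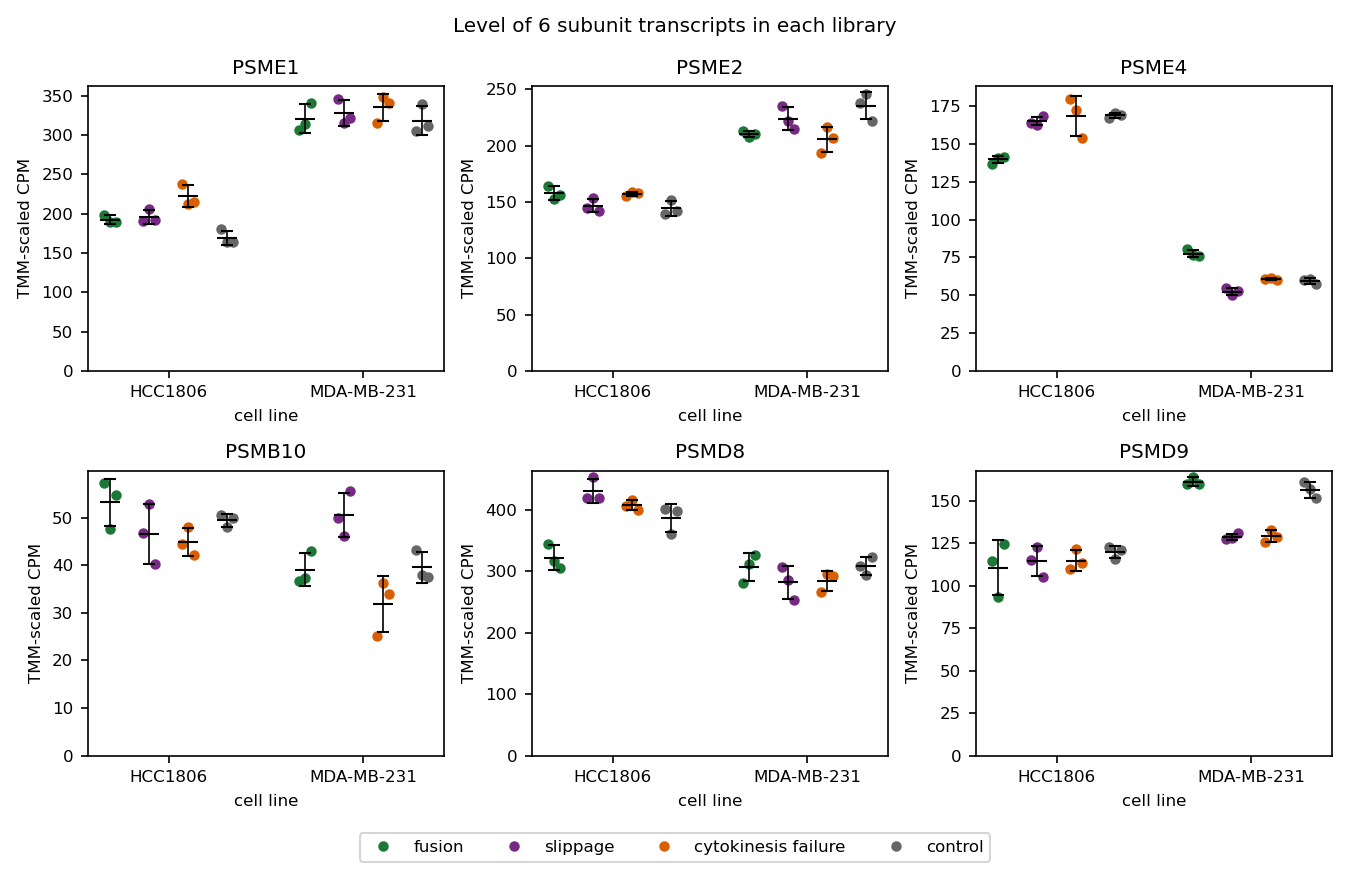
Level in TMM-scaled CPM (y axes, from 0) of PSME1, PSME2, PSME4, PSMB10, PSMD8 and PSMD9 in each of the 24 libraries, by cell line (x axis) and population (colour); points are libraries, lines the mean ± SD of 3. PSME1 is lowest in the HCC1806 control libraries. Within each line, PSME4 is lowest in fusion of HCC1806 and highest in fusion of MDA-MB-231, and PSMD9 is lower in slippage and cytokinesis failure of MDA-MB-231.

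PSME1, the alpha subunit of the PA28αβ activator, rose in every doubled HCC1806 population and was called in no MDA-MB-231 population. In HCC1806 it had 199, 189 and 190 CPM in fusion, 190.3, 207 and 192 in slippage and 238, 213 and 215 in cytokinesis failure, against 180.1, 164 and 164 CPM in control. All 9 doubled libraries lay above the 3 control libraries, and cytokinesis failure above fusion and slippage. The fold change was 0.39 ± 0.056 in cytokinesis failure (adjusted p = 4.64e-08), 0.21 ± 0.057 in slippage (adjusted p = 0.0182) and 0.19 ± 0.057 in fusion (adjusted p = 0.0221). The mean of the doubled populations exceeded control by 0.26 ± 0.047 (adjusted p = 1.93e-05). The calls for cytokinesis failure and for the mean held under every alternative. Those for fusion (without control replicate 2 or 3 or fusion replicate 1, adjusted p 0.103 to 0.109) and slippage (without control replicate 2 or 3 or slippage replicate 2, 0.105 to 0.15) did not, and both were lost with DESeq2 and on the TPM scale. Cytokinesis failure also exceeded fusion (fusion lower by -0.20 ± 0.055, adjusted p = 0.00463) and slippage (slippage lower by -0.17 ± 0.055, adjusted p = 0.0352). Both of these calls were lost without cytokinesis failure replicate 1 (adjusted p = 0.0861 for fusion), the second also without slippage replicate 1 or 3 (adjusted p 0.118 to 0.289 over these libraries). The second was also lost with DESeq2 and on the TPM scale.

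In MDA-MB-231, PSME1 had 307, 315 and 342 CPM in fusion, 346, 316 and 322 in slippage and 316, 349 and 342 in cytokinesis failure, against 305, 339.7 and 311 CPM in control. The populations overlapped, with fold changes of 0.01 to 0.08 and adjusted p of 0.494 or more. The cytokinesis failure effect on PSME1 was larger in HCC1806 than in MDA-MB-231 by 0.31 ± 0.079 (adjusted p = 0.00614), a call lost without HCC1806 cytokinesis failure replicate 1 (adjusted p = 0.0553).

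PSME2, the beta subunit of PA28αβ, whose gene neighbours PSME1 on chromosome 14, was not called higher with it. In HCC1806 it had 165, 152 and 156 CPM in fusion, 145, 153 and 142 in slippage and 155, 159 and 158 in cytokinesis failure, against 139, 151 and 142 CPM in control. Fusion and cytokinesis failure libraries were above control, but the fold changes of 0.13 ± 0.060 and 0.13 ± 0.059 were not called (adjusted p = 0.159 and 0.14). In MDA-MB-231 it had 213, 208 and 211 CPM in fusion, 235, 222 and 215 in slippage and 194, 216 and 207 in cytokinesis failure, against 238, 246 and 222 CPM in control. Every fusion and cytokinesis failure library lay below the 3 control libraries. Cytokinesis failure was not called (-0.19 ± 0.059, adjusted p = 0.056). Fusion was (-0.16 ± 0.059, adjusted p = 0.0498), a call lost without control replicate 1 or 2 or any fusion replicate (adjusted p 0.0951 to 0.224). The fusion call was also lost with DESeq2, RLE factors, a fit without a filter and a block for the replicate number. The PSME2 effect differed between the lines, higher in HCC1806 by 0.29 ± 0.083 for fusion (adjusted p = 0.0116) and by 0.32 ± 0.083 for cytokinesis failure (adjusted p = 0.00726). Both of these calls held under every alternative.

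PSME3, the nuclear activator PA28γ, fell in HCC1806 cytokinesis failure. It had 229, 221 and 203 CPM in fusion, 194, 213 and 211 in slippage and 191, 189 and 193 in cytokinesis failure, against 232, 216 and 218 CPM in control. Cytokinesis failure libraries were the lowest of the line (-0.22 ± 0.054, adjusted p = 0.00171), a call lost only on the TPM scale (adjusted p up to 0.122). In MDA-MB-231 it had 214, 202 and 196 CPM in fusion, 169.5, 165 and 167 in slippage and 174, 176 and 168 in cytokinesis failure, against 189, 188 and 181 CPM in control. Fusion libraries lay above and the other doubled libraries below control, none of which was called. Fusion exceeded slippage by 0.28 ± 0.059 (adjusted p = 0.000546) and cytokinesis failure by 0.23 ± 0.059 (adjusted p = 0.00292), with both calls lost only on the TPM scale (adjusted p up to 0.0679 and 0.226).

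PSME4, which encodes the PA200 activator known for its role in histone degradation, moved in opposite directions in the 2 fusion populations. In HCC1806 it had 137, 141 and 141 CPM in fusion, 164, 163 and 168 in slippage and 179, 172 and 154 in cytokinesis failure, against 167, 171 and 169 CPM in control. Fusion libraries were below all others (-0.27 ± 0.061 over control, adjusted p = 0.000671; held under every alternative). In MDA-MB-231 it had 80.3, 76.4 and 75.7 CPM in fusion, 54.8, 49.9 and 52.6 in slippage and 60.5, 61.5 and 60.1 in cytokinesis failure, against 60.03, 60.6 and 57.4 CPM in control. Fusion libraries were above all others there, by 0.38 ± 0.083 over control (adjusted p = 0.000869) and by 0.56 ± 0.085 over slippage (adjusted p = 4.11e-06). The call against control was lost only on the TPM scale (adjusted p up to 0.0881). The fusion effect differed between the lines by -0.66 ± 0.10 (HCC1806 minus MDA-MB-231, adjusted p = 6.31e-07), and this held under every alternative. For fusion 2 members had a higher effect in HCC1806 (background 5.48%) and 4 a lower one (6.57%; 12% for both directions). For slippage the 1 called member was higher (background 1.66% higher, 1.88% lower and 3.54% for both directions). For cytokinesis failure both called members were higher (background 3.31% higher, 3.22% lower and 6.53% for both directions). The ATPase genes PSMC1 (-0.24 ± 0.073, adjusted p = 0.0199) and PSMC4 (-0.23 ± 0.081, adjusted p = 0.0436) were the other members whose fusion effect was lower in HCC1806, besides PSMD8 and PSME4. PSMC4 had 257, 231 and 259 CPM in fusion against 268, 265 and 250.3 CPM in control of HCC1806, and 218, 189 and 207 CPM in fusion against 183, 180 and 184 CPM in control of MDA-MB-231. The calls of both ATPase genes were lost on the TPM scale. The PSMC1 call was also lost without HCC1806 control replicate 2 or fusion replicate 3 or MDA-MB-231 control replicate 3 (adjusted p 0.0505 to 0.14). That of PSMC4 was lost without 8 of 12 libraries (control 1 and 2 and fusion 2 of HCC1806, every control and fusion 1 and 3 of MDA-MB-231; adjusted p 0.0687 to 0.185).

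The genes lying within 5 Mb of a member were set beside it for members whose fold change stood out, a choice made after the values were seen. PSME4 (chr2:53864069-53970993, RefSeq, GRCh38.p14) had 15 tested neighbours. Their median was -0.19 in HCC1806 fusion (0 higher, 3 lower) and 0.25 in MDA-MB-231 fusion (6 higher, 0 lower), each on the same side as PSME4. In the other doubled populations the neighbours' medians lay between -0.05 and 0.10. The 19 neighbours of PSMD14 (chr2:161308425-161411717) had a median of -0.23 in HCC1806 fusion (0 higher, 3 lower) and -0.25 in MDA-MB-231 fusion (0 higher, 5 lower), beside -0.22 and -0.20 for PSMD14. The 32 neighbours of PSMA2 had a median of 0.14 in MDA-MB-231 fusion (6 higher, 0 lower), close to PSMA2 at 0.16. In HCC1806 fusion, where PSMA2 was at 0.20, theirs was -0.005. Others stood apart from their surroundings. The 104 neighbours of PSMD8 (chr19:38374571-38383824) had a median of 0.08 in HCC1806 fusion (13 higher, 16 lower), where PSMD8 was at -0.26. The 61 neighbours of PSME1 (chr14:24136194-24138962) had a median of 0.07 in HCC1806 cytokinesis failure (3 higher, 2 lower), where PSME1 was at 0.39. The 46 neighbours of PSMC6 had a median of -0.03 in HCC1806 fusion (4 higher, 4 lower), where PSMC6 was at 0.25. The 72 neighbours of PSMD9 (chr12:121888790-121918297) had medians of -0.10 in slippage (1 higher, 7 lower) and -0.05 in cytokinesis failure (0 higher, 1 lower) of MDA-MB-231, where PSMD9 was at -0.28 and -0.27. In MDA-MB-231 fusion they stood at -0.11 (2 higher, 10 lower), with PSMD9 at 0.04. DNA copy number was not analysed here, and its part in these values was not tested.

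**Figure D4:**
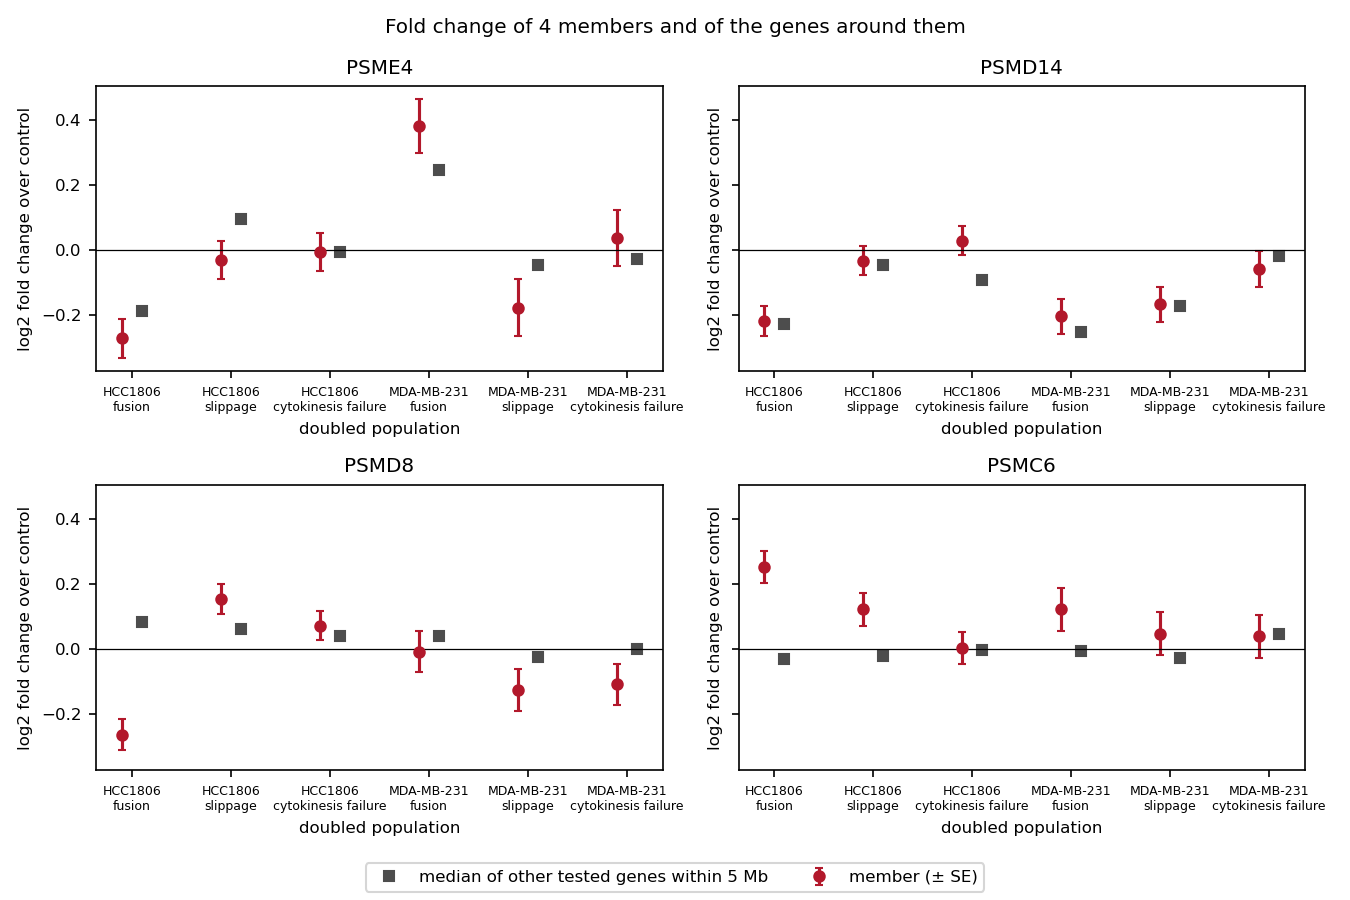
Log2 fold change over control (y axis) of PSME4, PSMD14, PSMD8 and PSMC6 beside the median of the other tested genes within 5 Mb, in each doubled population of each line (x axis). Members and neighbours lie together for PSME4 and PSMD14 in the fusion populations, and apart for PSMD8 and PSMC6 in HCC1806 fusion.

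More members differed between the parental lines than between any doubled population and its control. Of 39 tested members, 28 were higher and 6 lower in HCC1806 control than in MDA-MB-231 control (71.8% and 15.4%), where 38.8% of all genes were higher and 37.4% lower (76.2% for both directions). All 12 called core genes were higher, as were 16 regulatory genes, and the 6 lower ones were regulatory. The median of the members was 0.36, beside 0.007 for all genes. On log2(TPM + 1), 20 were higher and 7 lower, with the median of all genes moved by -0.12, and PSMA2 and PSMB7 changed sign. The summed level of all subunits was 14135 ± 302 CPM in HCC1806 control and 10691 ± 43.8 CPM in MDA-MB-231 control (SD, n = 3 each).

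PSME4 had the largest difference, at 167, 171 and 169 CPM in HCC1806 control against 60.03, 60.6 and 57.4 CPM in MDA-MB-231 control (1.51 ± 0.070, adjusted p = 1.29e-33). PSMA1 had 958, 1024 and 921 CPM in HCC1806 control against 382, 376 and 369.7 CPM in MDA-MB-231 control (1.36 ± 0.043, adjusted p = 4.47e-45). The lid subunit PSMD12 had 259, 219.5 and 233 CPM in HCC1806 control against 87.6, 101 and 91.3 CPM in MDA-MB-231 control (1.35 ± 0.065, adjusted p = 1.97e-32). In each case all HCC1806 libraries lay more than 2-fold above all MDA-MB-231 libraries. Among the lower members, PSMD6 had 80.9, 90.3 and 85.4 CPM in HCC1806 control against 176, 155 and 164 CPM in MDA-MB-231 control (-0.95 ± 0.068, adjusted p = 2.63e-22). Both subunits of PA28αβ were lower too, PSME1 at 180.1, 164 and 164 CPM in HCC1806 control against 305, 339.7 and 311 CPM in MDA-MB-231 control (-0.91 ± 0.057, adjusted p = 1.91e-25). PSME2 had 139, 151 and 142 CPM in HCC1806 control against 238, 246 and 222 CPM in MDA-MB-231 control (-0.71 ± 0.059, adjusted p = 6.4e-19). The remaining lower members were PSMD4, PSMD9 and PSMD13, from -0.22 to -0.38. PSMA3, PSMA5, PSMB4, PSMC3 and PSMD5 were not called. The catalytic subunits PSMB5 (0.35 ± 0.046), PSMB6 (0.49 ± 0.051) and PSMB7 (0.13 ± 0.051) were higher in HCC1806, PSMB7 not without HCC1806 control replicate 2 (adjusted p = 0.057). PSMD10 was called (0.36 ± 0.15) but not without replicate 2 of either control (adjusted p 0.069 to 0.193).

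**Figure D5:**
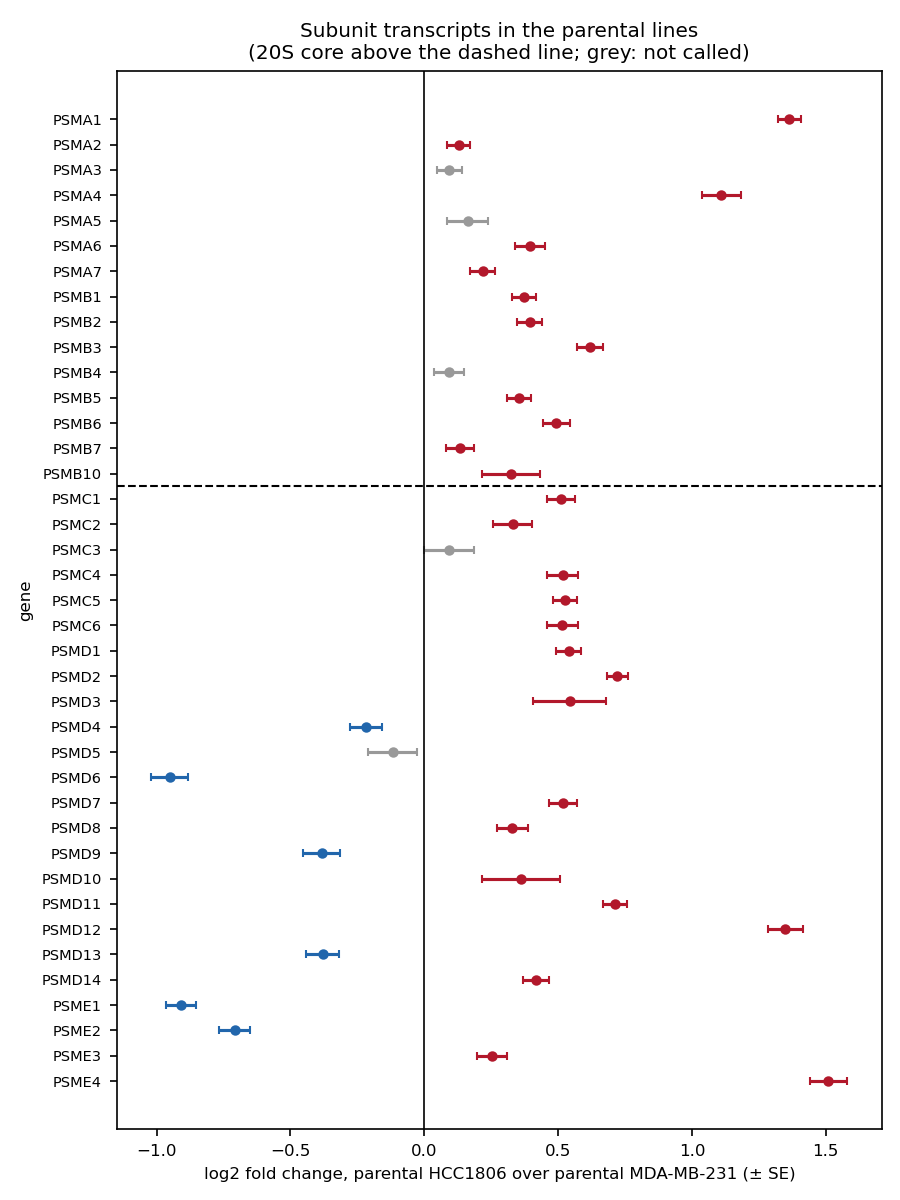
Log2 fold change of HCC1806 control over MDA-MB-231 control (x axis, ± SE) for the 39 tested subunit genes (y axis, core above the dashed line); red marks genes called higher, blue lower, grey not called. All core genes lie to the right of 0, while PSMD6, PSME1 and PSME2 lie farthest to the left.

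Levels of different genes were compared on the deposited TPM, whose handling of transcript length for 3′ tags is not given in the sources used here. In HCC1806 control PSMA7 was highest at 977 ± 35.2 TPM, followed by PSMB1 at 898 ± 33.9, PSMB3 at 814 ± 23.2 and PSMA1 at 786 ± 25.3 TPM (SD, n = 3). PSMB3 and PSMA1 lay within their spread of each other. In MDA-MB-231 control the order was PSMA7 at 939 ± 43.7, PSMB1 at 775 ± 7.77, PSMB3 at 581 ± 16.4 and PSMB5 at 515 ± 15.7 TPM. The lowest tested members were PSMD5, PSMD10 and PSME4 in both lines, at 12.6 ± 0.492, 15.4 ± 0.179 and 21.4 ± 0.835 TPM in HCC1806 control, and at 15.3 ± 0.921, 13.2 ± 2.66 and 8.41 ± 0.384 TPM in MDA-MB-231 control. PSMD5 and PSMD10 did not differ beyond their spread in MDA-MB-231. The core alpha subunit PSMA5 stood next to these, at 24.9 ± 1.93 TPM in HCC1806 control and 24.9 ± 1.48 TPM in MDA-MB-231 control.

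Lists of related genes were counted in the same fits. Unlike the members, these genes were not checked under the alternatives or with libraries left out. Their values in MDA-MB-231 slippage and cytokinesis failure include the libraries that stood apart. Of 16 tested assembly factors and proteasome-bound proteins, at most 2 were called in a doubled population against control. Of all genes, 3.33% (HCC1806 slippage) to 17.4% (MDA-MB-231 fusion) were called in these comparisons. The ubiquitin receptor ADRM1 was higher in HCC1806 fusion (0.18 ± 0.041, adjusted p = 0.00128). AKIRIN2, the adaptor for nuclear import of proteasomes, was lower in HCC1806 cytokinesis failure (-0.24 ± 0.068, adjusted p = 0.00622) and higher in that of MDA-MB-231 (0.28 ± 0.077, adjusted p = 0.0257). In MDA-MB-231 fusion the proteasomal deubiquitinase UCHL5 (-0.25 ± 0.071, adjusted p = 0.0129) and TXNL1 (-0.36 ± 0.077, adjusted p = 0.00077), a thioredoxin-like protein bound to the 19S particle, were lower.

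Of 12 tested genes of the NRF1 axis, 1 was higher in HCC1806 fusion (UBXN4, 0.44 ± 0.063, adjusted p = 9.73e-08), 2 were lower in HCC1806 cytokinesis failure, 2 were higher and 3 lower in MDA-MB-231 fusion and 2 were lower in MDA-MB-231 slippage. Of all genes, 5.33% were higher in HCC1806 fusion, 8.63% lower in HCC1806 cytokinesis failure, 9.34% higher and 8.11% lower in MDA-MB-231 fusion and 2.91% lower in MDA-MB-231 slippage. NFE2L1 itself fell in MDA-MB-231 fusion (-0.29 ± 0.062, adjusted p = 0.00079). NFE2L2, which encodes NRF2, was lower there (-0.21 ± 0.061, adjusted p = 0.0116) and in slippage (-0.20 ± 0.061, adjusted p = 0.0352), as was its inhibitor KEAP1 (-0.31 ± 0.089, adjusted p = 0.0121, and -0.30 ± 0.088, adjusted p = 0.0311). The small MAF partner MAFF was lower in HCC1806 cytokinesis failure (-1.39 ± 0.25, adjusted p = 1.55e-05) and higher in MDA-MB-231 fusion (0.45 ± 0.14, adjusted p = 0.0164). Of 18 tested genes for ubiquitin, its activating enzymes and shuttle factors, 4 were higher and 1 lower in MDA-MB-231 fusion, and at most 1 in each direction in the other comparisons of a doubled population with its control. In those other comparisons 1.53% to 8.37% of all genes were higher and 1.81% to 8.63% lower. RPS27A (0.47 ± 0.043, adjusted p = 5.74e-11), a ubiquitin fusion gene whose product also yields a ribosomal protein, was among the higher ones in MDA-MB-231 fusion. SQSTM1, the autophagy receptor p62, fell in MDA-MB-231 cytokinesis failure (-0.27 ± 0.048, adjusted p = 0.000214). Medians of the 3 lists over these comparisons lay between -0.06 and 0.03.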

How the data were processed

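TAGseq libraries (24, in 8 groups of 3 biological replicates) were analysed from the deposited tables. The authors used STAR and Salmon with GRCh38, per the submitters' processing notes; versions, strand setting and use of molecular identifiers are not given in the sources used here. Values are estimated counts per gene, deposited by the authors, of which 4.41% lay more than 1e-06 from a whole number, and a separate deposited table of TPM. All columns were matched to labelled samples (0 not mapped). Low-pass genome sequencing was not analysed here.

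Estimated counts were rounded and filtered with filterByExpr, then fitted with edgeR 4.0.16 under R 4.3.3 (TMM factors, robust quasi-likelihood tests), each line on its 12 libraries (11467 genes tested in HCC1806, 11424 in MDA-MB-231), and line differences on all 24 (12563 genes). Calls are at a Benjamini-Hochberg adjusted p below 0.05 over all genes tested. Levels are CPM scaled with TMM factors of all libraries. Each standard error was derived from its fold change and F value. P-values cover the spread between replicates of a population, not between independently derived populations. The fit was tested on simulated data. Alternatives were DESeq2 1.42.0, RLE factors, a fit without a filter, a stricter filter (mean of 5 CPM), limma 3.58.1 on log2(TPM + 1) or on log2(TPM + 0.1), only the libraries compared, a block for the replicate number, each library left out, and both libraries that stood apart left out.

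Members, lists and alternatives were chosen with earlier results of these data known. Values by library, often only for the groups compared, are given for most of the members named by a rule. The rule took up to 3 called members per direction and class in each comparison with control and in their mean. It also took up to 3 per direction in other comparisons, the catalytic subunits, PSMB10 and the activators. Some others were named after their values were seen. Lists of related genes (assembly factors and bound proteins, the NRF1 axis, ubiquitin and shuttle factors, immune and stromal markers) were counted over the same fit, with up to 2 genes per direction named, of which 1 is not reported here. Positions and promoters are from RefSeq, GRCh38.p14: all 41 members had a position and 36 a promoter. Motifs were searched on both strands of every window, and TGACNNNGC, CCAAT and the GAAA repeat do not overlap in the promoters shown. Reads of members with pseudogenes (13 named for PSMC1, 4 for PSMA6, 3 for PSMA2 and PSMD10 each, 2 for PSME2, 1 each for PSMB3, PSMB7, PSMD4, PSMD7 and PSMD8) may be shared with them. Estimates lay more than 0.01 from a whole number in 7 libraries for PSMD4 and 4 for PSMD7. This was so in 2 libraries for PSMC5, 1 each for PSMC1 and PSMA3, and 0 for the other members.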

Additional observations from a re-analysis of the deposited data

Results flagged for a closer look

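Of the effects of doubling, 9 differed between the lines by a test of the difference itself in the fit of all 24 libraries (edgeR's quasi-likelihood test, Benjamini-Hochberg adjusted p below 0.05, HCC1806 minus MDA-MB-231 on the log2 scale). For fusion, PSME4 differed by -0.66 ± 0.10 (adjusted p = 6.31e-07), with all 3 fusion libraries below control in HCC1806 and all 3 above control in MDA-MB-231. PSME2 differed by 0.29 ± 0.083 (adjusted p = 0.0116) and PSMB5 by 0.22 ± 0.066 (adjusted p = 0.0164). PSMD8 differed by -0.26 ± 0.082 (adjusted p = 0.0294), PSMC1 by -0.24 ± 0.073 (adjusted p = 0.0199) and PSMC4 by -0.23 ± 0.081 (adjusted p = 0.0436). For slippage, PSMD8 differed by 0.28 ± 0.082 (adjusted p = 0.0377). For cytokinesis failure, PSME1 differed by 0.31 ± 0.079 (adjusted p = 0.00614) and PSME2 by 0.32 ± 0.083 (adjusted p = 0.00726). The calls for PSMD8, PSMC1, PSMC4 and PSME1 were each lost when certain single libraries were left out, as given above.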

How the results depend on the processing

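Counts of called members stayed within 1.5 times under 107 of 153 alternatives that leave out no single library. DESeq2 gave 4 in HCC1806 cytokinesis failure, 3 in the HCC1806 mean, 0 in HCC1806 slippage and in slippage against cytokinesis failure, 4 in MDA-MB-231 fusion, 0 in its mean, 1 in its slippage and 0 for the slippage effect between lines. On log2(TPM + 0.1) and log2(TPM + 1), limma gave in HCC1806 6 (fusion against cytokinesis failure), 3 (fusion against slippage), 3 (mean) and 0 (slippage), and in MDA-MB-231 0 (cytokinesis failure, mean, slippage against cytokinesis failure), 4 (fusion, and fusion against cytokinesis failure), 3 (fusion against slippage) and 1 (slippage). Between lines these scales gave 3 for fusion and 0 for slippage, and log2(TPM + 0.1) alone gave 1 for cytokinesis failure and 1 in HCC1806 slippage against cytokinesis failure. On both TPM scales the parental difference reversed, to -0.03044 and -0.03052 for PSMA2 and to -0.02679 and -0.02685 for PSMB7 (log2(TPM + 1) first). No filter and the replicate block each gave 0 in the MDA-MB-231 mean, and the block 1 in MDA-MB-231 slippage and 0 for the slippage effect between lines. The labels do not say whether replicate numbers pair the samples. Deviations of same-numbered libraries correlated at -0.097 to 0.077 in HCC1806 and -0.191 to 0.0884 in MDA-MB-231, which cannot settle how samples were handled. Fits of only the libraries compared gave 1 in HCC1806 slippage and 5 in MDA-MB-231 slippage. A stricter filter gave 2 in MDA-MB-231 cytokinesis failure. Without both libraries that stood apart there were 2 in MDA-MB-231 cytokinesis failure, 1 in slippage and 0 for the slippage effect between lines. Leaving out each library gave in HCC1806 7 to 9 (fusion), 0 to 3 (slippage), 4 to 5 (cytokinesis failure), 3 to 6 (mean), 5 to 6 (fusion against slippage), 9 to 12 (fusion against cytokinesis failure) and 0 to 1 (slippage against cytokinesis failure). In MDA-MB-231 it gave 4 to 6, 1 to 2, 1 to 2, 0 to 2, 4 to 10, 5 to 10 and 1 to 2 for the same comparisons. Counts moved over 1.5 times in MDA-MB-231 fusion against slippage without slippage replicate 1 (10), in fusion against cytokinesis failure without fusion replicate 2 (5), in fusion without control replicate 1 or 2 or fusion replicate 1 (4 each), in HCC1806 fusion against slippage without fusion replicate 1 (5), in HCC1806 cytokinesis failure without control replicate 1 or 2 or cytokinesis failure replicate 1 (4 each) and in the HCC1806 mean without control replicate 1 (3). They also did so in each comparison with 3 or fewer calls. Between lines it gave 4 to 6 (fusion), 0 to 1 (slippage) and 1 to 3 (cytokinesis failure), and for the parental lines 32 to 35. Of the single-gene results under alternatives, 208 higher and 142 lower ones kept their direction but were no longer called and 1171 higher and 1092 lower ones kept their side of the test. The cause of these changes was not tested. The mean of the doubled populations has no value from only the libraries compared, since it uses all libraries of its line.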

Other observations

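PSMD11, the lid subunit that stabilises assembled particles, and PSMA4, an alpha subunit, were called in no doubled population but differed between the parental lines. PSMD11 had 606, 632 and 591 CPM in HCC1806 control against 369.8, 383 and 364 CPM in MDA-MB-231 control (0.71 ± 0.044, adjusted p = 4.69e-26). PSMA4 had 367, 415 and 340.3 CPM in HCC1806 control against 164, 178 and 177 CPM in MDA-MB-231 control (1.11 ± 0.072, adjusted p = 2.1e-15). For neither gene did libraries of the lines overlap.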
